A study of Rattus norvegicus with 12 samples.

Results

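The genes described are Col1a1, Col1a2 and Col3a1, which encode the chains of fibrillar collagens type I and type III. They were read by rat Ensembl identifier (ENSRNOG00000003897 for Col1a1, ENSRNOG00000011292 for Col1a2 and ENSRNOG00000003357 for Col3a1) and are 3 of the 19955 genes in the deposited table. Hearts of wild-type Sprague Dawley rats were profiled by RNA sequencing in 3 groups. The sham group had surgery without an infarct, the MI group had an operation that causes a myocardial infarction, and in the Patch group a cardiac patch was stitched to the edge of the infarct. The labels list 4 samples in each group. The table names 2 sham, 4 MI and 4 Patch libraries, and its other 2 columns, named ctrl, matched no label and were not used, so that comparisons with sham rest on 2 libraries where 4 samples are labelled. The labels do not say whether the ctrl columns hold the other 2 sham samples. The time after surgery, the age of the animals, the patch material and the part of the heart taken are not given in the labels.

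Type I collagen is the stiff main fibre of scar tissue and of the connective tissue between heart muscle cells. Its triple helix is built from α1 chains, encoded by Col1a1, and an α2 chain, encoded by Col1a2. Type III collagen is a helix of identical chains encoded by Col3a1, and it forms thinner, more extensible fibres that often share a fibril with type I. In the heart these chains are made mainly by fibroblasts, which secrete them when lost muscle is replaced by scar after an infarct.

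The 10 libraries held 11420710 to 14110864 reads each that were assigned to genes, and all shares of reads below are shares of these. Library MI2 stood apart before any collagen was considered, with 5474 genes at 0 reads where the other 9 libraries had 2400 to 3335. Levels are given as normalized signal, in which 1 read was worth 0.790 to 1.12 units. Nothing in the labels says whether the samples of a group came from separate animals, so the p-values measure the spread between these samples, which may be technical.

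Col1a1 and Col3a1 rose in MI relative to sham and fell in Patch relative to MI, and Col1a2 passed the test in neither comparison. Thus 2 of the 3 genes were called higher in MI, where 7.3% of the 17091 genes tested were, and the same pair was called lower in Patch than in MI, where 5.45% of genes were (limma, Benjamini-Hochberg adjusted p under 0.05 over all genes). Without regard to p, the MI and sham libraries did not overlap for Col1a1 and Col3a1, with MI higher, as in 17.1% of all genes. Patch and MI libraries did not overlap for these genes either, with Patch lower, as in 7.79% of all genes. Both comparisons use the same MI libraries, so a rise in the first and a fall in the second are not independent. In RNA from bulk tissue, fewer cells of a type and less RNA per cell cannot be told apart.

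The type I α1 chain gene, Col1a1, had a signal of 6179 in sham1 and 2547 in sham2. In MI it stood at 61295 in MI1, 25392 in MI2, 191244 in MI162 and 77932 in MI165. In Patch it stood at 5464 in P695, 6774 in P697, 16221 in P699 and 8366 in P985. The lowest MI library, MI2, was 4.11-fold above the higher sham library and also above every Patch library, whereas P695 lay below sham1. The sham mean was 4363 ± 2568 (SD, n = 2), the MI mean 88966 ± 71624 (SD, n = 4) and the Patch mean 9206 ± 4825 (SD, n = 4).

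The difference between MI and sham in Col1a1 was 4.13 on the log2(signal + 1) scale (SE 0.698, limma adjusted p = 0.00792), which ranked 75th from the highest among the 17091 genes tested. On the group means this was a 20.4-fold difference, which became 12.6-fold without MI162 and 34.9-fold without sham1. Between Patch and MI it was −3.04 (SE 0.570, limma adjusted p = 0.0135), a 9.66-fold lower mean in Patch (5.96-fold without MI162). The MI-versus-sham call was lost when either sham library was left out (4.77, limma adjusted p = 0.0663, without sham1 and 3.49, adjusted p = 0.0957, without sham2; the lone sham library is then assumed to vary like the other groups). The Patch-versus-MI call was lost without P695 (−2.84, adjusted p = 0.0552) or P985 (−3.04, adjusted p = 0.0502), and over all alternatives the adjusted p in limma, edgeR and DESeq2 ran from 9.39e-06 to 0.0957 for MI versus sham and from 6.68e-05 to 0.0552 for Patch versus MI. The log2 difference kept its sign in all 21 alternatives of both comparisons.

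Col3a1, the type III chain gene, followed the same order with more reads per library. Its signal was 20711 in sham1 and 6844 in sham2. The MI values were 190993 in MI1, 82110 in MI2, 327412 in MI162 and 180661 in MI165, and by reads Col3a1 ranked first of all genes in MI1, MI162 and MI165 and 7th in MI2. The Patch values were 18997 in P695, 22988 in P697, 57497 in P699 and 22738 in P985. By reads it ranked 68th, 43rd, 13th and 45th in those libraries, against 58th in sham1 and 283rd in sham2. P699 was the highest Patch library for both Col1a1 and Col3a1, and MI162 the highest MI library.

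Means of Col3a1 were 13778 ± 9806 in sham (SD, n = 2), 195294 ± 100827 for MI (SD, n = 4) and 30555 ± 18054 for Patch (SD, n = 4). MI exceeded sham by 3.87 (log2, SE 0.684, limma adjusted p = 0.00865), 14.2-fold on the means (28.5-fold without sham1 and 9.43-fold without sham2). Patch minus MI was −2.67 on that scale (SE 0.558, limma adjusted p = 0.0173), 6.39-fold on the means. As for Col1a1, the calls depended on single libraries. The first was lost without sham1 (4.67, limma adjusted p = 0.0663), without sham2 (3.07, adjusted p = 0.114) and when Patch was kept out of the fit (3.87, adjusted p = 0.0550), within a range of 9.73e-09 to 0.114 over the alternatives. The second was lost without P695 (−2.49, adjusted p = 0.0692), P697 (−2.58, adjusted p = 0.0550) or P985 (−2.58, adjusted p = 0.0625), within a range of 1.72e-06 to 0.0692. No alternative turned either direction. Leaving out sham1 made the MI-versus-sham difference larger, although its call was lost. The loss of calls was not particular to Col3a1. Over all genes, the calls in Patch versus MI fell from 2251 to 209 without P695, 611 without P697 and 292 without P985.

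**Figure D1:**
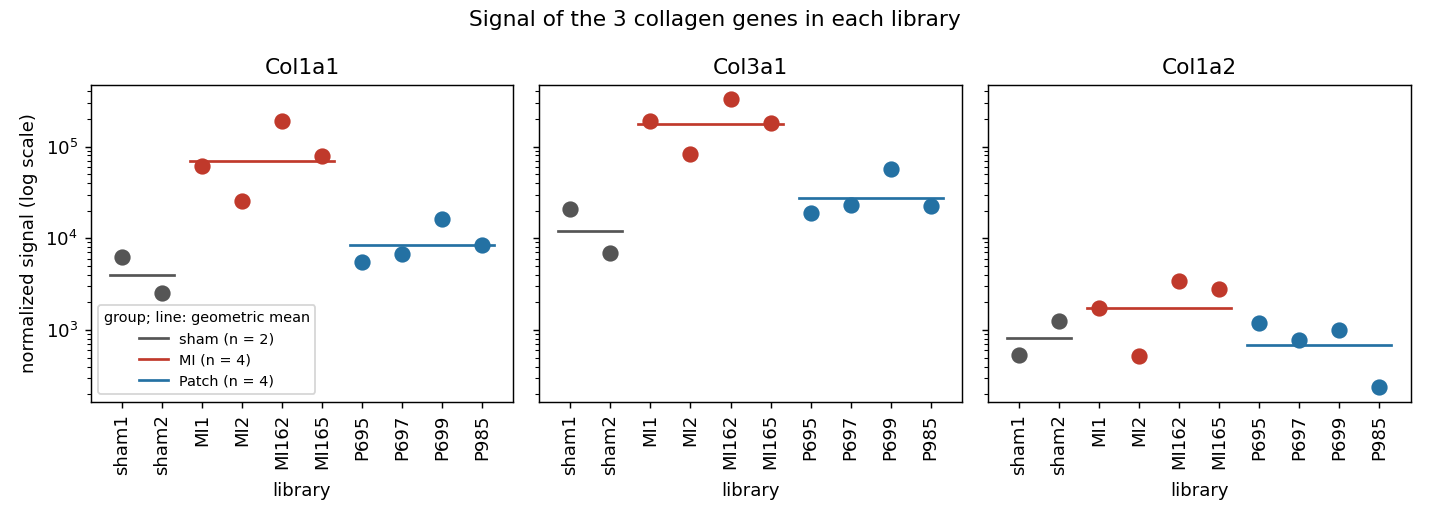
Normalized signal (log scale) of Col1a1, Col3a1 and Col1a2 in each library, coloured by group, with a line at each group's geometric mean. For Col1a1 and Col3a1 the 4 MI libraries lie above all sham and Patch libraries, while for Col1a2 the lowest MI value, 524, lies near the lower sham value, 532, and the groups overlap.

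Shares of the reads assigned to genes in each library do not use the deposited scaling. On this measure the 3 genes together took 0.202% of reads in sham1 and 0.0793% in sham2. In MI they took 2.28% in MI1, 0.899% in MI2, 4.63% in MI162 and 2.33% in MI165. In Patch they took 0.189% in P695, 0.239% in P697, 0.597% in P699 and 0.244% in P985. All MI libraries were above all Patch libraries, and P695 again lay below sham1. The 95% Wilson intervals of these shares were at most 0.0112 percentage points to either side and cover counting error only.

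The mean share was 0.141 ± 0.0868% in sham (SD, n = 2), 2.54 ± 1.55% for MI (SD, n = 4) and 0.317 ± 0.188% for Patch (SD, n = 4). MI took an 18.0-fold larger share than sham (exact permutation test, two-sided, p = 0.133, adjusted over 3 comparisons 0.2). With the smaller tail doubled, as in this test, 4 libraries against 2 cannot give a p below 0.133. The fold was 32.0 without sham1 and 12.5 without sham2. Patch took a share 7.99-fold smaller than MI (5.79-fold without MI162, the lowest, to 11.3-fold without P699, the highest), with p = 0.0286 (exact permutation test, two-sided, n = 4 and 4), the smallest these numbers allow, and 0.0857 after adjustment, which does not pass. Col3a1 and Col1a1 made up nearly all of the share: mean shares in MI were 1.73 ± 0.911% for Col3a1, 0.788 ± 0.638% for Col1a1 and 0.0189 ± 0.0115% for Col1a2 (SD, n = 4).

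**Figure D2:**
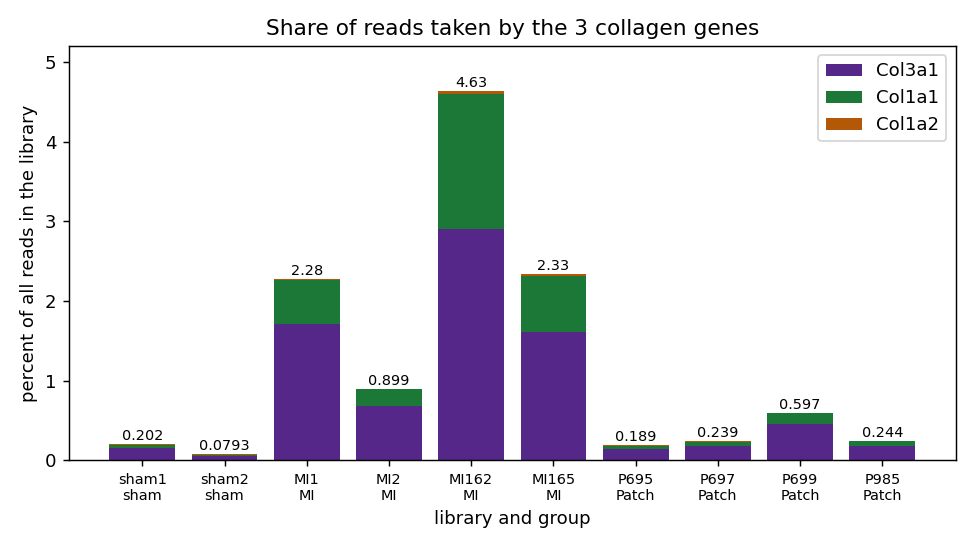
Col3a1, Col1a1 and Col1a2 as percent of all reads assigned to genes in each library, stacked, with the sum printed above each bar. The sum runs from 0.899 to 4.63 in MI, from 0.189 to 0.597 in Patch, and is 0.202 and 0.0793 in sham.

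The row of Col1a2, the α2 chain gene of type I collagen, did not follow the row of its partner chain. Its signal was 532 in sham1 and 1257 in sham2, the reverse order of Col1a1 and Col3a1. The MI values were 1736 in MI1, 524 in MI2, 3433 in MI162 and 2827 in MI165, so that MI2 lay near sham1 and below sham2, while MI162 and MI165 lay above every other library. The Patch values were 1185 in P695, 771 in P697, 994 in P699 and 238 in P985, and P985 was the lowest of the 10. The groups overlapped in each of the 3 comparisons. The 479 reads of sham1 have an exact 95% Poisson interval of 437 to 524 and the 1140 reads of sham2 one of 1075 to 1208. These intervals cover counting error only and say nothing about variation between samples.

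Col1a2 averaged 894 ± 513 in sham (SD, n = 2), 2130 ± 1280 for MI (SD, n = 4) and 797 ± 409 for Patch (SD, n = 4). The log2 difference between MI and sham was 1.08 (95% interval −0.60 to 2.75, limma adjusted p = 0.374), and that between Patch and MI was −1.34 (−2.71 to 0.03, limma adjusted p = 0.173). The latter depended on MI2: without that library it was −1.91 and passed (limma adjusted p = 0.0205), as it did with sample weights, which give MI2 the lowest weight (−2.08, adjusted p = 0.0292), and in DESeq2 (−1.42, adjusted p = 0.0425). Without P985 the difference was −0.83. Over all alternatives the adjusted p for Patch versus MI ran from 0.0205 to 0.402. For MI versus sham, Col1a2 passed in none of the 21 alternatives, with adjusted p values of 0.0695 to 0.838; the difference was 0.46 without sham1, 0.74 without MI162, 1.65 without MI2 and 1.70 without sham2.

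Across the 10 libraries, Col3a1 and Col1a1 had a Pearson correlation of 0.990 on the log2(signal + 1) scale (Spearman 0.976). Col1a2 correlated with Col1a1 at 0.622 (Spearman 0.430) and with Col3a1 at 0.585 (Spearman 0.455). These are descriptions over libraries that fall into 3 groups, and genes of a library share its depth and scaling. Of 11439 other genes whose signal averaged at least 50, Col3a1 had the 4th highest correlation with Col1a1, and Col1a2 ranked 2980th. The deposited table carries no symbols, so the name of each row rests on its identifier. Whether the authors' counting missed reads of the Col1a2 row was not tested, and its levels and every ratio to it hold only for the reads counted there.

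**Figure D3:**
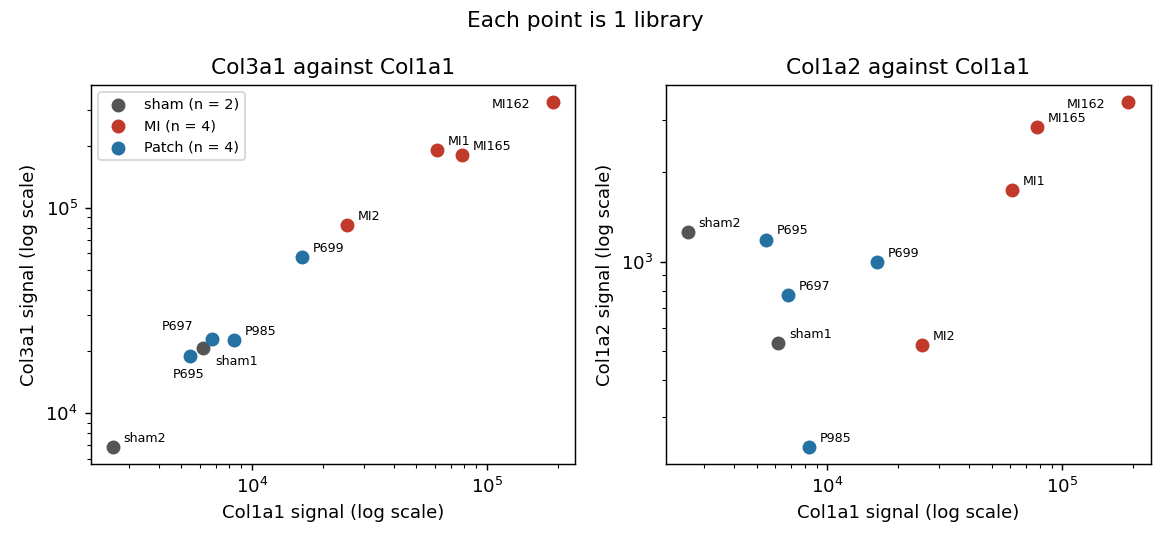
Signal of Col3a1 (left) and Col1a2 (right) against Col1a1, both axes on a log scale, each point 1 library coloured by group. The Col3a1 points lie close to a line from sham2 to MI162, and the Col1a2 points do not, with sham2 and P695 high and MI2 and P985 low for their Col1a1.

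Ratios between the chains cancel library scaling. Transcript lengths were not used here, so a ratio of reads is not a ratio of transcripts and only its change between libraries is compared. The Col3a1 to Col1a1 ratio was 3.35 and 2.69 in sham1 and sham2. It was 3.12 in MI1, 3.23 in MI2, 1.71 in MI162 and 2.32 in MI165, and 3.48, 3.39, 3.54 and 2.72 in P695, P697, P699 and P985. MI162 and MI165 had the lowest ratios, and the remaining 8 libraries lay between 2.69 and 3.54. In log2 the ratio differed by −0.26 between MI and sham (exact permutation p = 0.533), by 0.38 between Patch and MI (0.171) and by 0.12 between Patch and sham (0.267), all two-sided. These differences moved with single libraries. The first was −0.07 without MI162, −0.10 without sham1 and −0.41 without sham2, the second was 0.19 without MI162, and the last ran from −0.04 without sham2 to 0.28 without sham1. The 95% limma intervals were −1.04 to 0.53, −0.27 to 1.02 and −0.67 to 0.91, so differences within these bounds were not excluded.

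Ratios to Col1a2 moved much more. Reads of Col1a1 per read of Col1a2 were 11.6 in sham1 and 2.03 in sham2. They were 35.3 in MI1, 48.4 in MI2, 55.7 in MI162 and 27.6 in MI165. In Patch they were 4.61 in P695, 8.78 in P697, 16.3 in P699 and 35.1 in P985. The MI libraries were all above both sham libraries, and P985 lay inside the MI range. MI2, which had little Col1a2 signal for an MI library, had a ratio like those of the other MI libraries.

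The log2 ratio of Col1a1 to Col1a2 averaged 2.28 ± 1.78 in sham (SD, n = 2), 5.33 ± 0.457 for MI (SD, n = 4) and 3.63 ± 1.25 for Patch (SD, n = 4). MI exceeded sham by 3.05, for which the exact permutation test can give no p below 0.133 and gave that value (0.3 adjusted over 9 tests of ratios). When the ratio was fitted in limma beside all genes, this difference passed (SE 0.769, adjusted p = 0.0250). That fit draws the spread of a ratio toward that of single genes. It also takes 1 spread for all groups, whose SDs here were unequal. Patch was below MI by a log2 difference of −1.71, which passed in neither test (exact permutation p = 0.0571, adjusted 0.3; limma adjusted p = 0.0930). The size of the MI-versus-sham difference depended on the sham libraries, being 4.31 without sham1 and 1.79 without sham2. The Col3a1 to Col1a2 ratio gave a like picture, with 38.9 and 5.44 in sham1 and sham2, 63.9 to 157 in MI and 16.0 to 95.4 in Patch. Its log2 difference was 2.80 between MI and sham (exact permutation p = 0.133, adjusted 0.3; limma adjusted p = 0.0349), with 4.22 without sham1 and 1.38 without sham2, and −1.33 between Patch and MI (−0.89 without P695; exact permutation p = 0.0857, adjusted 0.3; limma adjusted p = 0.184).

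**Figure D4:**
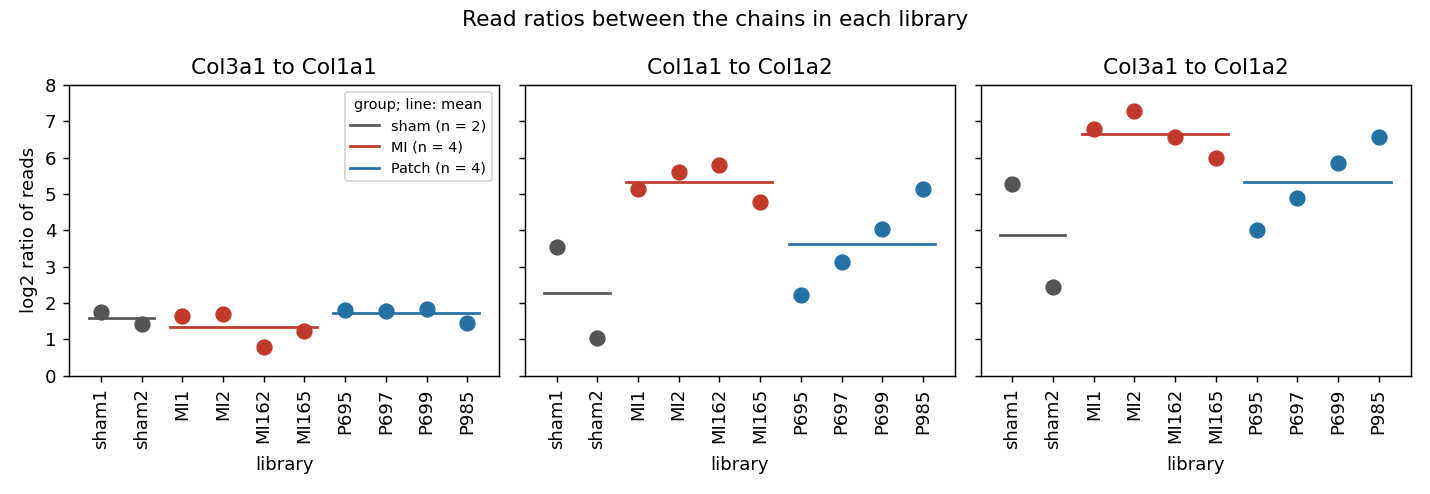
Log2 ratio of reads between pairs of chains in each library, coloured by group, with a line at each group mean. Col3a1 to Col1a1 stays between 0.78 and 1.83 in all libraries, whereas Col1a1 to Col1a2 runs from 1.02 in sham2 to 5.80 in MI162.

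Patch was compared with sham to see where the chains stood relative to hearts without an infarct. None of the 3 genes passed, and neither did any other gene (0% of 17091 in limma, where 524 genes, or 3.07%, had an unadjusted p under 0.05; edgeR called 0 and DESeq2 15). The log2 difference was 1.09 for Col1a1 (95% interval −0.45 to 2.62), 1.21 for Col3a1 (−0.30 to 2.71) and −0.26 for Col1a2 (−1.94 to 1.42), each with a limma adjusted p of 1. In the limma fit of all libraries none of the 3 had an unadjusted p under 0.05. Col3a1 did in DESeq2 (0.0473) and in limma with sample weights (0.0475), without sham1 (0.0452) and when MI was kept out of the fit (0.0476), where Col1a1 did too (0.0417), and neither gene passed after adjustment in any of these. These intervals include no difference and, for Col1a1 and Col3a1, a 4-fold higher level in Patch, so that equality was not shown. On the means, Patch was 2.11-fold above sham for Col1a1 and 2.22-fold for Col3a1. These folds were 1.49 and 1.48 without sham2, and 3.61 and 4.46 without sham1. Without P699 both were 1.57, and leaving out any other Patch library raised both. The log2 differences were 0.45 and 0.41 without sham2, 1.72 and 2.01 without sham1, and 0.77 and 0.85 without P699. For Col1a2 the sign turned without sham2 (0.36) or P985 (0.24).

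**Figure D5:**
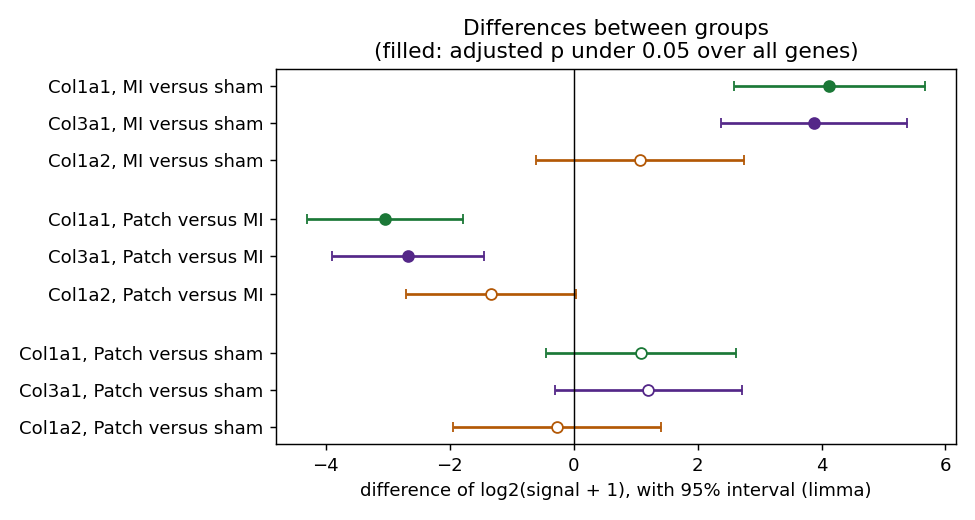
Differences of log2(signal + 1) between groups with 95% intervals from limma; filled points have an adjusted p under 0.05 over all genes. Col1a1 and Col3a1 are filled for MI versus sham (4.13 and 3.87) and Patch versus MI (−3.04 and −2.67), and no point is filled for Patch versus sham.

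The order of the group means was thus MI, Patch, sham for Col1a1 and Col3a1, with Patch and sham not separated beyond their spread. For Col1a2 the order was MI, sham, Patch, with no neighbours separated. All 3 genes varied more within groups than most: the pooled within-group SD (log2) was 0.964 for Col1a1, 0.833 for Col3a1 and 1.10 for Col1a2, larger than in 96.7%, 95.4% and 97.7% of the 11440 genes whose signal averaged at least 50, whose median was 0.287.

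The genes whose pattern was most like the mean of the 3 chains were sought among the same 11440 genes by the Pearson correlation over 10 libraries. Since the identifiers were not paired with symbols, the first 2 are given by identifier. ENSRNOG00000053239 had r = 0.988, with a signal of 275 and 302 in sham, 627 to 1802 in MI and 312 to 659 in Patch. ENSRNOG00000030210 also had r = 0.988, with 474 and 221 in sham, 1838 to 11057 in MI and 524 to 1204 in Patch. Both had their highest MI value in MI162, their lowest in MI2 and their highest Patch value in P699, as Col1a1 and Col3a1 did. For the first of them P699 lay above MI2, which was not so for Col1a1 or Col3a1.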

How the data were processed

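The deposited table holds 1 normalized signal per gene and library. The submitters' processing notes name HISAT2, SAMtools, featureCounts, DESeq2 and build rn6, with no role or version. The annotation release, the strand setting and the treatment of shared reads are not given in the sources used here. Division by the step of each library turned 100% of the deposited signal values into whole reads (tolerance 0.01, largest distance 4.56e-05). Columns were assigned to groups by name, and 2 were not used.

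Differences were tested with limma 3.58.1 (R 4.3.3) on log2(signal + 1), with all 3 groups in 1 fit, a mean-variance trend and a filter of mean signal at least 1. Adjusted p-values are over all genes. Shares and log2 ratios were tested over libraries with exact permutation tests, in which the p-value is the smaller tail doubled. Alternatives were edgeR 4.0.16 and DESeq2 1.42.0 on recovered reads, other pseudocounts (0.5 and 5), filters, scalings and weights, fits of 2 groups, and leaving out each library. The fits were tested on simulated data. Python 3.11.15 was used otherwise.

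The genes and lists were chosen with earlier results of these data known. Named genes were the 3 collagens and the 2 genes of most similar pattern. Of the table's identifiers, 0 matched the RefSeq gene table (GRCr8 assembly), so 8 lists of 129 collagen-processing, matrix and TGF-beta genes were not analysed here, nor were 11 lists of cell type markers, against which the tissue was therefore not checked. PCR copies were not told apart by molecular identifiers.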

Additional observations from a re-analysis of the deposited data

Results flagged for a closer look

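In 14 sets of 4 values (7 measures in MI and in Patch), 3 sets had a library whose gap to the nearest other library passed Dixon's 95% limit for 4 values; chance gives about 0.7 such sets, and the sets are related. P699 had a Col3a1 signal of 57497, where the next Patch library had 22988. P699 also had the 3 chains at 0.597% of reads, where the next had 0.244%. P985 had a log2 ratio of Col3a1 to Col1a1 of 1.44, where the next lowest Patch library had 1.76.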

How the results depend on the processing

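Leaving out each library in turn gave log2 differences of 3.49 to 4.77 for Col1a1, 3.07 to 4.67 for Col3a1 and 0.46 to 1.70 for Col1a2 in MI versus sham, and 1.79 to 4.31 and 1.38 to 4.22 for the log2 ratios of Col1a1 and Col3a1 to Col1a2. In Patch versus MI it gave −3.53 to −2.56 for Col1a1, −3.03 to −2.36 for Col3a1 and −1.91 to −0.83 for Col1a2. In Patch versus sham it gave −0.88 to 0.36 for Col1a2 and −0.04 to 0.28 for the log2 ratio of Col3a1 to Col1a1, which turned without sham2 (−0.038), as Col1a2 did without sham2 (0.36) and without P985 (0.24). Col3a1 in MI versus sham lost its call when Patch was kept out of the fit (3.87), which leaves fewer samples. Col1a2 in Patch versus MI gained one in DESeq2 (−1.42) and with sample weights (−2.08). The ratios of Col3a1 (2.80) and Col1a1 (3.05) to Col1a2 in MI versus sham passed only in limma; exact permutation of 4 against 2 libraries cannot pass. The cause of the other changes was not tested.

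The 2636 genes called in MI versus sham became 5679 with sample weights, 599 with 2 groups, and 7 (without sham1), 24 (without sham2), 1448 (without MI162) or 4979 (without MI2) when a library was left out. The 2251 of Patch versus MI became 3701 in DESeq2, 5383 with sample weights, 1437 with 2 groups and 209 (without P695) to 4821 (without MI2). The 0 of Patch versus sham became 15 in DESeq2, 10 with sample weights and 0 to 2 without a library. With scaling to total signal, the median difference over all genes was 0.24 in MI versus sham, against 0.012 in the main fit. In Patch versus MI it was −0.17, against 0.0023 in the main fit. Higher calls under that scaling were 73.5% rather than 47.3% for MI versus sham, and 30.2% rather than 58.6% for Patch versus MI. The collagen differences were then 4.37, 1.32 and 4.12 for Col1a1, Col1a2 and Col3a1 in MI versus sham. No paired analysis was possible because no label ties a number in the column names to a pair of samples. The numbers of sham1, sham2, MI1 and MI2 also occur in sample titles, and those of the other 6 columns used do not. Both sham columns are thus in the first set and all Patch columns in the second, and MI is in both. What the numbers stand for is not given. If the sets differ in handling, that cannot be told apart from the difference between Patch and sham.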
